A study of Mus musculus with 12 samples.

Results

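The genes described here are 29 named genes for the uptake, activation and oxidation of fatty acids and for the control of these steps, read in tibialis anterior, a muscle of the front of the lower leg, of the mouse. They were chosen by name, and all 29 were found among the 26264 genes of each count table. The study set uninjured muscle beside muscle given a vehicle, phosphate-buffered saline (PBS), and muscle given a matrix gel, with 4 libraries of total RNA in each group. The gel was given as 50 µl at 6 mg/ml to the left leg and PBS as 50 µl to the right. The series title names a gel derived from tissue matrix and acute and disuse injury. Which injury these libraries stand for, the time after it, and the strain, sex and age of the mice are not in the labels used here. The deposited names give gel and PBS libraries of one number the same animal number, so they were read as both legs of one animal, and the uninjured libraries came from other animals. PBS and uninjured therefore cannot be told apart from the animals they came from. The PBS injection and any injury of the PBS legs cannot be told apart in that comparison either. Gel and PBS cannot be told apart from left and right.

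Long-chain fatty acids reach a muscle fibre after lipoprotein lipase (Lpl) frees them from circulating triglyceride. Cd36 helps to carry them across the membrane, Fabp3 binds them inside the fibre, and Acsl1 joins them to coenzyme A. The carnitine shuttle (Cpt1b, Cpt2) moves them into the mitochondrion, where dehydrogenation, hydration, a second dehydrogenation and thiolysis shorten the chain repeatedly. Malonyl-CoA, made by Acacb and removed by Mlycd, inhibits the entry step, and the nuclear receptors Ppara and Ppard with the coactivator Ppargc1a switch many of these genes on. Oxidative fibres rely on this pathway most, and the tibialis anterior is largely a fast muscle.

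Levels are given as CPM, counts scaled to a common library size with a correction for library composition, and they are compared between libraries for one gene, not between genes. The libraries held 15626086 to 22182483 counts, and all 29 genes passed the filter on low counts that left 13499 genes. A gene was called where edgeR's quasi-likelihood test gave a Benjamini-Hochberg adjusted p below 0.05 over all 13499 genes. Fold changes are log2 values with their standard error. On the leading principal component over all genes, gel libraries 1, 2 and 4 had scores of -91.4 to -67.4, whereas gel library 3 was at 5.39. The PBS libraries lay at 17.2 to 46.5 and the uninjured libraries at 21.5 to 37.1. For 21 of the 29 genes gel library 3 was the highest gel library, and for 21 it lay within the PBS range. PBS library 4 was the lowest PBS library for 22 genes. The median coefficient of variation of the 29 genes was 5.73% among uninjured, 14.8% among PBS and 26.4% among gel libraries. The fast fibre genes that mark the tissue summed to 242683 to 262116 CPM in uninjured, 193622 to 228368 in PBS and 156879 to 200898 in gel libraries. Fewer fibres and less RNA of a gene per fibre cannot be told apart in such tissue libraries.

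**Figure D1:**
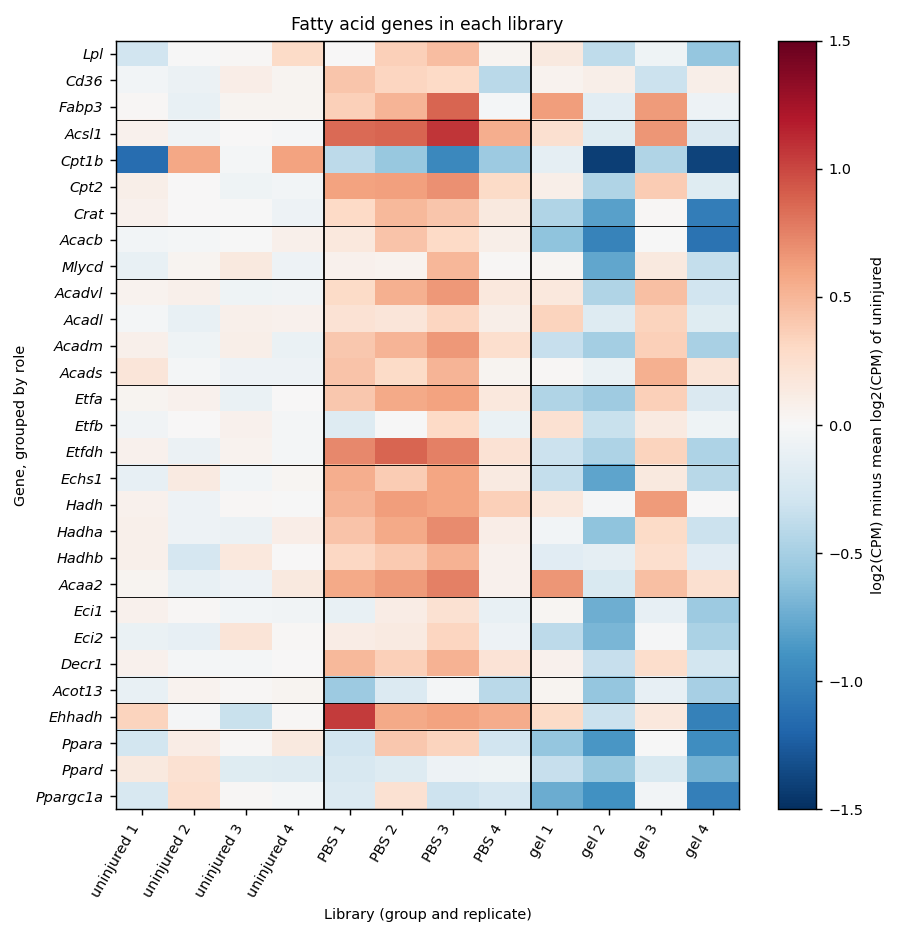
Each cell of the map is 1 gene in 1 library, as log2 CPM minus the mean log2 CPM of the 4 uninjured libraries, with genes in rows grouped by role and libraries in columns. The PBS columns are mostly above 0, gel columns 2 and 4 mostly below it, and gel column 3 resembles the PBS columns.

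In PBS-treated against uninjured muscle, 4 of the 29 genes rose and none fell. They were Acsl1, Cpt2, Etfdh, which passes electrons from fatty acid oxidation to ubiquinone, and Hadh, the short-chain hydroxyacyl-CoA dehydrogenase. Among all genes tested, 6.17% were called, 2.79% higher and 3.39% lower. The fitted change was positive for 25 of the 29 genes, with a median of 0.33 beside 0.00 over all genes. All 4 PBS libraries were above all 4 uninjured libraries for 13 of the 29, beside 10.4% of all genes, and none of the 29 showed the opposite order, beside 10.2%. At an unadjusted p below 0.05, edgeR counted 15 members higher and 0 lower, beside 10.9% and 11.5% of all genes. DESeq2 called 6 higher and 0 lower, beside 4.29% and 4.89%. The count of 4 became 10 without gel library 3, beside 5.73% of all genes, and 16 when the 2 groups were fitted alone, beside 9.33%. Without any 1 uninjured library, or PBS library 1, 2 or 3, the count was 1, with only Acsl1 called. In those fits the adjusted p was 0.0781 to 0.131 for Cpt2 and 0.0778 to 0.122 for Etfdh. For Hadh it was 0.0594 to 0.126 in those fits and the one without PBS library 4, which also lost its call.

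In gel-treated against PBS-treated muscle, 13 of the 29 genes fell and none rose. The 13 were Acsl1, Cpt2, Crat, Acacb, Acadm, Etfa, Etfdh, Echs1, Hadha, Eci2, Decr1, Ehhadh and Ppara. Among all genes tested, 29.8% were called, 13.2% lower and 16.6% higher. The fitted change was negative for 28 of the 29 genes, with a median of -0.42 beside 0.04 over all genes. Only Crat, Acacb and Ehhadh had all 4 gel libraries below all 4 PBS libraries, which is 3 of 29 beside 9.74% of all genes, and none of the 29 showed the opposite order, beside 10.4%. At an unadjusted p below 0.05, edgeR counted 19 members lower and 0 higher, beside 18.9% and 22.9% of all genes. DESeq2 called 16 lower and 0 higher, beside 13.5% and 16.8%. Without gel library 3 the count was 21 lower, beside 20% of all genes, with a median of -0.59. Without gel library 2 it was 7, beside 9.43%, and with libraries scaled to fast fibre genes it was 6, beside 4.99%.

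Compared leg with leg, 21 genes were lower in the gel leg of animal 1, 29 in animal 2, 24 in animal 3 and 25 in animal 4. The median differences on the log2 scale were -0.40, -0.85, -0.30 and -0.44, beside 0.05, 0.06, 0.02 and 0.02 over all genes. Thus animal 3, the source of gel library 3, had the smallest median difference, with the same sign as in the other animals. All 13 called genes, and 17 of the 29, were lower in the gel leg of all 4 animals. Among all genes tested, 21% were. A fit with the animal as a block called the same 13 genes lower.

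In gel-treated against uninjured muscle, 3 of the 29 genes fell and none rose: Acacb, Ppard and Ppargc1a. Among all genes tested, 25.6% were called, 11.1% lower and 14.5% higher, so the share of the 29 called lower, 10.3%, was near that of all genes. The median change was -0.17 beside 0.03 over all genes, and 21 of the 29 were negative. Ppard alone had all 4 gel libraries below all 4 uninjured libraries, beside 11.7% of all genes, and none of the 29 showed the opposite order, beside 11.3%. At an unadjusted p below 0.05, edgeR counted 7 members lower and 0 higher, beside 17.6% and 21% of all genes. DESeq2 called 4 lower and 0 higher, beside 11.1% and 14.9%. The count of 3 became 11 without gel library 3, beside 17.9% of all genes, with a median of -0.32. It became 0 without uninjured library 2 or gel library 2 or 4, and 1 without uninjured library 1, 3 or 4. The 3 comparisons share libraries in pairs, so a high PBS library raises the first and lowers the second.

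**Figure D2:**
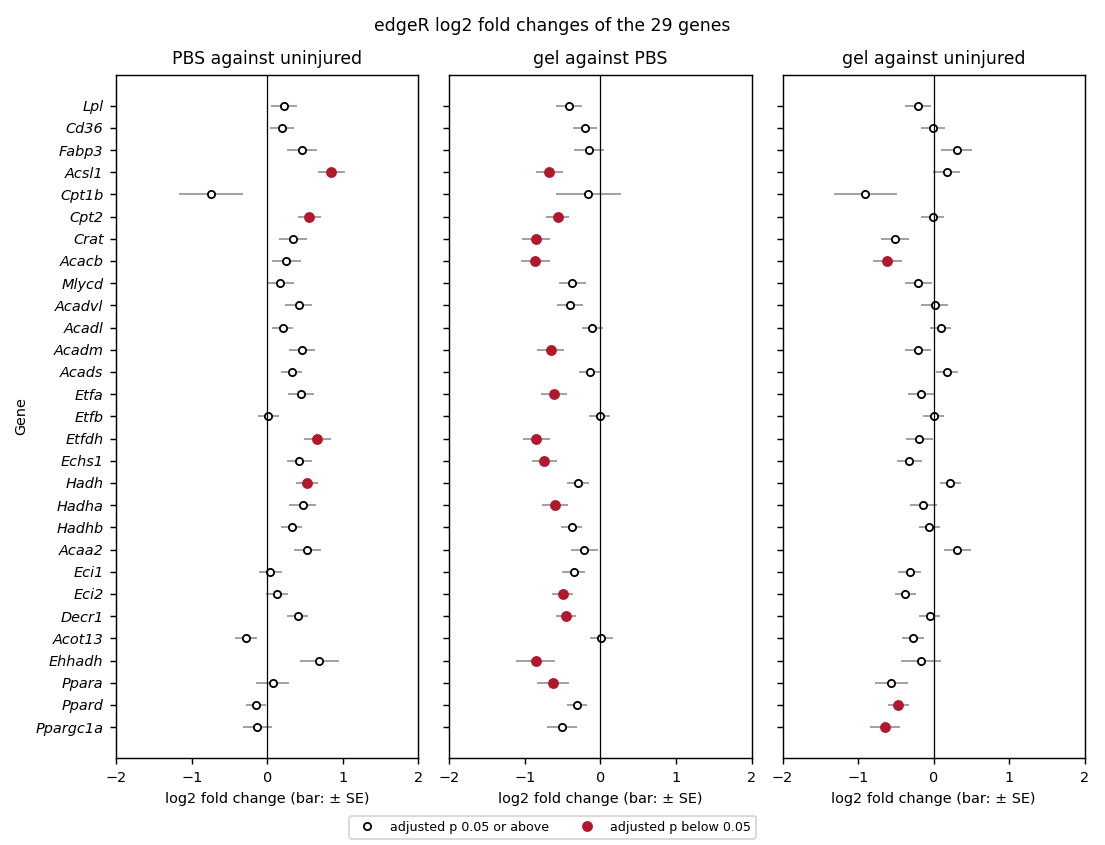
Points are edgeR log2 fold changes of the 29 genes in the 3 comparisons, bars are ± 1 standard error, and filled red points have an adjusted p below 0.05. Filled points number 4 to the right of 0 in the first panel, 13 to the left in the second and 3 to the left in the third.

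None of the 3 uptake and binding genes was called in any comparison, at an adjusted p below 0.05. Cd36 stood at 116, 112, 127 and 122 CPM in uninjured, 158, 149, 147 and 90.3 CPM in PBS, and 124, 127, 95.6 and 127 CPM in gel libraries. PBS libraries 1 to 3 were the highest 3 of the 12 and PBS library 4 was the lowest. Its change was 0.19 ± 0.16 for PBS against uninjured (edgeR adjusted p = 0.522), -0.20 ± 0.16 for gel against PBS (0.351) and -0.01 ± 0.16 for gel against uninjured (0.963). Without PBS library 4 the adjusted p for gel against PBS was 0.0344. Lpl ranged over 347 to 514 CPM in uninjured, 424 to 584 in PBS and 283 to 468 in gel libraries, with overlap of every pair of groups. Fabp3 ranged over 327 to 364, 345 to 644 and 318 to 552 CPM.

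Acsl1, which activates long-chain fatty acids, had the largest PBS rise of the 29 genes. It stood at 248, 230, 239 and 235 CPM in uninjured libraries, at 430, 437, 500 and 346 CPM in PBS libraries and at 282, 210, 375 and 205 CPM in gel libraries. Every PBS library exceeded every uninjured one. Gel library 3 lay inside the PBS range and the other gel libraries lay below it. The change was 0.85 ± 0.18 for PBS against uninjured, a 1.80-fold difference (adjusted p = 0.0103). For gel against PBS it was -0.68 ± 0.18 (adjusted p = 0.0109). Acsl1 kept both calls in all alternative fits, with a highest adjusted p of 0.0432 for PBS against uninjured.

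In the carnitine shuttle, Cpt2, the inner-membrane transferase that returns the chain to coenzyme A, followed the same order. Its level was 66.8, 63.0, 60.2 and 61.0 CPM in uninjured, 95.1, 95.9, 101 and 76.5 CPM in PBS and 66.9, 46.0, 81.3 and 55.3 CPM in gel libraries. The PBS libraries were above all uninjured libraries, and gel libraries 1, 2 and 4 were below all PBS libraries. Cpt2 rose by 0.55 ± 0.15 in PBS against uninjured (adjusted p = 0.0417) and fell by 0.56 ± 0.15 in gel against PBS (adjusted p = 0.0130). Crat, carnitine acetyltransferase, which buffers acetyl-CoA, stood at 679, 651, 649 and 617 CPM in uninjured, 796, 911, 865 and 716 CPM in PBS and 473, 369, 657 and 317 CPM in gel libraries. The gel libraries were all below the PBS libraries, and gel library 3 alone reached the uninjured range. Crat fell by 0.86 ± 0.18 in gel against PBS, to 0.552 of the PBS level (adjusted p = 0.00425).

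Cpt1b, the muscle form of the outer-membrane transferase and the controlled entry step, gave very few counts, 16 to 50 per library. It stood at 0.910, 3.00, 1.96 and 3.04 CPM in uninjured, 1.53, 1.36, 1.03 and 1.38 CPM in PBS and 1.82, 0.757, 1.47 and 0.765 CPM in gel libraries. The groups overlapped. Its change was -0.74 ± 0.42 for PBS against uninjured (edgeR adjusted p = 0.320), -0.16 ± 0.43 for gel against PBS (0.806) and -0.90 ± 0.42 for gel against uninjured (0.128). In GENCODE M21, 81.4% of its exon bases lie on the same strand in exons of Gm44502, a gene model reading through from the neighbouring Chkb, and Gm44502 is listed at 0 in all 12 libraries. The labels do not say how reads in shared exons were counted, so the Cpt1b level is uncertain.

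Acacb, acetyl-CoA carboxylase 2, which makes the malonyl-CoA that inhibits entry, was the 1 member that fell in gel against both other groups. Its level was 223, 226, 230 and 242 CPM in uninjured, 257, 309, 284 and 245 CPM in PBS and 152, 115, 230 and 107 CPM in gel libraries. Every gel library was below every PBS library, and gel library 3 lay within the uninjured range. Acacb fell by 0.86 ± 0.19 in gel against PBS (adjusted p = 0.00507) and by 0.61 ± 0.19 in gel against uninjured (adjusted p = 0.0291). The second call was lost in 9 of 18 alternative fits, among them those without any 1 uninjured library or without gel library 1, 2 or 4 (adjusted p = 0.0529 to 0.466 over the 9). Mlycd, the decarboxylase that removes malonyl-CoA, ranged over 66.4 to 79.8, 72.6 to 102 and 41.8 to 79.7 CPM in uninjured, PBS and gel libraries and was not called.

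**Figure D3:**
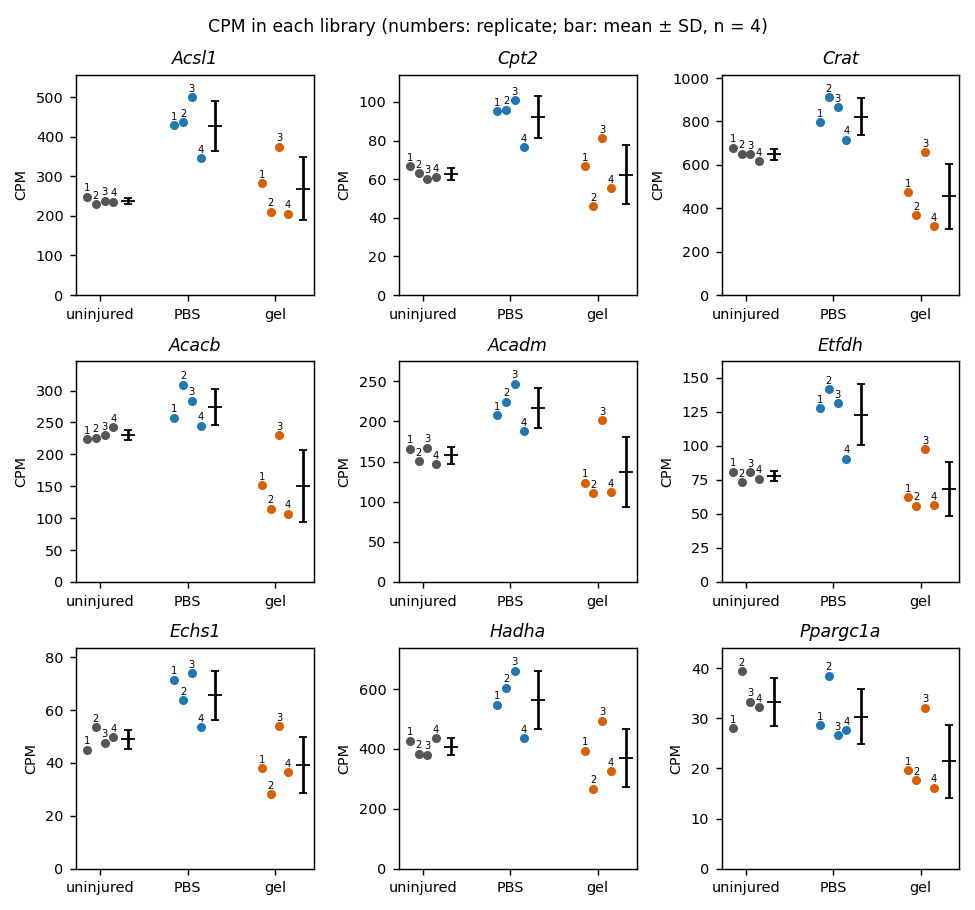
CPM of 9 members in each library, numbered by replicate, with group mean ± SD (n = 4) on linear axes from 0. Gel library 3 is the highest gel point in every panel, and PBS library 4 the lowest PBS point in all panels but that of Ppargc1a.

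Of the acyl-CoA dehydrogenases, which take the first electrons from the chain, only the medium-chain enzyme Acadm was called. It stood at 166, 150, 167 and 147 CPM in uninjured, 208, 224, 247 and 188 CPM in PBS and 124, 111, 202 and 112 CPM in gel libraries. Gel library 3 lay within the PBS range, and the other gel libraries were below all uninjured libraries. Acadm fell by 0.66 ± 0.17 in gel against PBS (adjusted p = 0.0110). The very-long-chain (Acadvl), long-chain (Acadl) and short-chain (Acads) enzymes had changes from -0.40 to -0.11 in that comparison. Their largest gel values were 397, 336 and 82.2 CPM, all in gel library 3. Of the exon bases of Acadvl, 42.9% overlap Dvl2 on the opposite strand, where Dvl2 had 83 to 186 counts per library and Acadvl 4085 to 7959.

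The electron transfer flavoprotein carries electrons from these dehydrogenases to Etfdh. Etfdh stood at 81.0, 73.1, 80.9 and 76.0 CPM in uninjured, 128, 142, 132 and 90.5 CPM in PBS and 62.4, 56.2, 97.7 and 56.4 CPM in gel libraries. The PBS libraries were above all uninjured libraries, and gel libraries 1, 2 and 4 were below all uninjured libraries. Etfdh rose by 0.66 ± 0.18 in PBS against uninjured (adjusted p = 0.0362) and fell by 0.85 ± 0.18 in gel against PBS, with the lowest adjusted p of the 29 genes, 0.00368. Etfa, the alpha subunit, stood at 68.2, 69.1, 61.7 and 66.5 CPM in uninjured, 88.0, 98.6, 101 and 73.9 CPM in PBS and 48.5, 45.8, 84.7 and 56.9 CPM in gel libraries. Etfa fell by 0.62 ± 0.17 in gel against PBS (adjusted p = 0.0141). This call was lost without gel library 2 (0.0501) and with scaling to fast fibre genes (0.0638). Etfb, the beta subunit, ranged over 164 to 177, 148 to 209 and 134 to 199 CPM, and the difference between the subunits was not tested. Of the exon bases of Etfb, 53.0% overlap another gene model on the same strand.

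Of the genes for the hydratase, second dehydrogenase and thiolase steps, Hadh rose in PBS against uninjured, and Echs1 and Hadha fell in gel against PBS. Hadh stood at 183, 165, 177 and 174 CPM in uninjured, 249, 269, 263 and 224 CPM in PBS and 195, 172, 273 and 176 CPM in gel libraries. The PBS libraries were above all uninjured libraries, and gel library 3 was the highest of the 12. The change was 0.52 ± 0.14 for PBS against uninjured (adjusted p = 0.0408). Echs1, the short-chain hydratase, stood at 45.0, 53.5, 47.6 and 49.8 CPM in uninjured, 71.5, 63.6, 73.9 and 53.5 CPM in PBS and 38.1, 28.2, 53.9 and 36.5 CPM in gel libraries. Gel libraries 1, 2 and 4 were below every other library. Echs1 fell by 0.75 ± 0.17 in gel against PBS (adjusted p = 0.00483).

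Hadha and Hadhb encode the subunits of the trifunctional protein, which carries out the hydratase, dehydrogenase and thiolase steps on long chains. Hadha stood at 427, 384, 381 and 435 CPM in uninjured, 547, 604, 662 and 436 CPM in PBS and 394, 268, 495 and 325 CPM in gel libraries. Hadhb stood at 164, 132, 175 and 157 CPM in uninjured, 194, 206, 225 and 163 CPM in PBS and 139, 142, 185 and 139 CPM in gel libraries. Gel library 3 lay within the PBS range for both. Hadha fell by 0.60 ± 0.18 in gel against PBS (adjusted p = 0.0190). Hadhb had a change of -0.38 ± 0.14 (0.0504), given here after its value was seen, and the difference between the subunits was not tested. The Hadha call was lost without PBS library 2 or 3 or gel library 2 or 4, and under 2 other fits (adjusted p = 0.0511 to 0.0826).

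The pair lie head to head with starts 273 bases apart, so the 250 bases before the Hadha start share 228 bases with those before the Hadhb start. That stretch is printed because most of it lies before the starts of both genes, with the windows of 3 other called genes for comparison. Whether it drives either gene was not tested. RefSeq windows in build GRCm38.p6 were used, whereas the reads were mapped to mm39, and the sequences read 5′ to 3′ towards the start of the gene. Windows were found for 23 members, with 24 windows in all. Capitals mark AGGTCA on either strand (written TGACCT on the other), the half-site that nuclear receptors such as Ppara recognise.
Hadha chr5:30154981-30155230, minus strand: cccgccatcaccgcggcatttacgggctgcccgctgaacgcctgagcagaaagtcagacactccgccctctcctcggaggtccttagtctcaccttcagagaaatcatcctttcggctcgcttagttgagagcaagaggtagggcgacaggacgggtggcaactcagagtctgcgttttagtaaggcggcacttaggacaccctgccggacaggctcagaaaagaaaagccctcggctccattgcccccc
Etfdh chr3:79628768-79629017, minus strand: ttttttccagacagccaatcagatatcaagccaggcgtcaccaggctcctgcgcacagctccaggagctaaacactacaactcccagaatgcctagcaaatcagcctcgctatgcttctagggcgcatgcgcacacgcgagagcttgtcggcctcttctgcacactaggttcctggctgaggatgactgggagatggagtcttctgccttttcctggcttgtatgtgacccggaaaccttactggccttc
Acadm chr3:153944644-153944893, minus strand: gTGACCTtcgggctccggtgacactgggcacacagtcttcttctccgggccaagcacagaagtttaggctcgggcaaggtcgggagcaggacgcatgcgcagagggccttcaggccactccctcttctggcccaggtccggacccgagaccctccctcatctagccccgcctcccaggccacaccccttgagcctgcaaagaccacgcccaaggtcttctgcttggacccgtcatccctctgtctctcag
Echs1 chr7:140116422-140116671, minus strand: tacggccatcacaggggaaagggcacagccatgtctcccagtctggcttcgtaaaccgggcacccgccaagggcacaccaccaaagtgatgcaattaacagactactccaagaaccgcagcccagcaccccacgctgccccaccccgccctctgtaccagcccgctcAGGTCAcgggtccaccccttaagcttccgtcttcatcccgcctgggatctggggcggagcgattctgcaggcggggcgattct
Acadm has the half-site 249 bases before the start and Echs1 has it 83 bases before, while Hadha and Etfdh have none in these windows. Over windows of 250 bases before to 50 after the start, 5 of 24 members' windows (20.8%) held it, those of Cd36, Acacb, Acadvl, Acadm and Echs1. Of all 32851 windows, 16.3% did. The direct repeat of the half-site with 1 base between the copies, called DR1, was in 0 of the 24 and in 0.0396% of all. TCAAGGTCA, which contains the half-site, was in 0 of the 24 and 0.423% of all. At shares this low among all windows, 0 of 24 says little about the members. A match of letters is a description and not a bound site.

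The auxiliary enzymes reshape unsaturated chains. Eci2, an enoyl-CoA isomerase, stood at 50.6, 50.0, 62.1 and 55.1 CPM in uninjured, 58.8, 59.5, 67.8 and 51.4 CPM in PBS and 41.4, 33.8, 53.8 and 39.0 CPM in gel libraries. Eci2 fell by 0.50 ± 0.14 in gel against PBS (adjusted p = 0.0159). This call was lost without PBS library 3 or gel library 2 and with scaling to fast fibre genes (0.0520 to 0.159). Decr1, the dienoyl-CoA reductase, stood at 85.7, 80.3, 80.4 and 82.2 CPM in uninjured, 115, 105, 118 and 94.8 CPM in PBS and 85.9, 64.6, 98.3 and 67.9 CPM in gel libraries. Its PBS libraries were above all uninjured libraries, and for both genes gel library 3 lay inside the PBS range. Decr1 fell by 0.45 ± 0.13 in gel against PBS (adjusted p = 0.0200), a call lost without PBS library 3 or gel library 2 or 4 and in 2 other fits (0.0566 to 0.204). Eci1, the isomerase paralogue, ranged over 95 to 103, 90.6 to 116 and 59.0 to 100 CPM and was not called.

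Ehhadh, the bifunctional enzyme of peroxisomal oxidation, was a low-count gene. It stood at 5.34, 4.20, 3.38 and 4.31 CPM in uninjured, 8.79, 6.31, 6.47 and 6.24 CPM in PBS and 5.18, 3.41, 4.76 and 2.11 CPM in gel libraries. All PBS libraries were above all libraries of both other groups. Ehhadh fell by 0.86 ± 0.26 in gel against PBS (adjusted p = 0.0234), a call lost without PBS library 1 or gel library 2 or 4 and in 2 other fits (0.0557 to 0.0820). Acot13, a thioesterase that hydrolyses acyl-CoA, had a lower mean in PBS than in uninjured muscle, unlike 25 of the 29 genes. It ranged over 122 to 136 CPM in uninjured, 90.7 to 129 in PBS and 88.3 to 136 in gel libraries, and it was not called. Acaa2, the last thiolase, ranged over 95.2 to 114, 108 to 173 and 87.7 to 163 CPM and was not called.

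None of the 3 regulators was called in PBS against uninjured, and the changes there lay between -0.15 and 0.07. Ppara stood at 15.2, 20, 18.7 and 20.5 CPM in uninjured, 15.2, 24.4, 23.4 and 15.1 CPM in PBS and 12.4, 10.1, 18.5 and 9.72 CPM in gel libraries. Gel libraries 1, 2 and 4 were the lowest 3 of the 12. Ppara had a change of 0.07 ± 0.21 for PBS against uninjured (edgeR adjusted p = 0.889), fell by 0.63 ± 0.22 in gel against PBS (0.0391) and had a change of -0.56 ± 0.22 for gel against uninjured (0.0692). The call was lost in 8 alternative fits, among them those without uninjured library 3, PBS library 2 or 3 or gel library 1, 2 or 4 (0.0514 to 0.144).

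Ppard stood at 73.6, 77.7, 58.2 and 57.9 CPM in uninjured, 56.1, 57.9, 62.7 and 63.5 CPM in PBS and 52.2, 44.6, 56.7 and 40.5 CPM in gel libraries. Its gel libraries were all below the uninjured ones, by a narrow margin for gel library 3. Ppard fell by 0.47 ± 0.13 in gel against uninjured (adjusted p = 0.0189), a call lost without uninjured library 1 or 2 or gel library 2 or 4 (0.0531 to 0.0681). With scaling to fast fibre genes the Ppard change turned sign, to 0.043 (0.773). Ppargc1a, the coactivator of mitochondrial gene expression, stood at 28, 39.4, 33.3 and 32.2 CPM in uninjured, 28.6, 38.5, 26.6 and 27.6 CPM in PBS and 19.6, 17.6, 32.1 and 16.2 CPM in gel libraries. Gel libraries 1, 2 and 4 were below the other 9. Ppargc1a had a change of -0.13 ± 0.20 for PBS against uninjured (adjusted p = 0.755), -0.51 ± 0.20 for gel against PBS (0.0646) and fell by 0.64 ± 0.20 in gel against uninjured (0.0279). The last call was lost without uninjured library 2, 3 or 4 or gel library 1, 2 or 4 and with fibre-gene scaling (0.0524 to 0.453).

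The 29 genes were set beside 83 further fatty acid genes that passed the filter, taken from a fixed list of 84. In PBS against uninjured 8 of the 83 were called higher and 4 lower, beside 2.79% and 3.39% of all genes. In gel against PBS 10 were called higher and 26 lower, beside 16.6% and 13.2%. In gel against uninjured 10 were called higher and 16 lower, beside 14.5% and 11.1%. The medians were 0.09, -0.26 and -0.11. By role, the counts called in PBS against uninjured were 4 higher of 11 peroxisomal genes, 2 higher and 1 lower of 22 regulators, and at most 1 in each direction in the 5 other roles. In gel against PBS, 2 of the 22 regulators were higher and 12 lower. Of 16 genes listed under mitochondrial oxidation, 1 was higher, which was Decr2, a peroxisomal enzyme, and 7 were lower. The 7 were Acad11, Acad12, Acadsb, Ivd, Pcca, Pccb and Mmut. Acadsb, Ivd, Pcca, Pccb and Mmut act mainly on branched-chain amino acids or propionyl-CoA, so this count is not one of fatty acid oxidation alone. There 4 of 9 activation and shuttle genes were higher and 1 lower, and 3 of the 11 peroxisomal genes were lower. In that comparison 1 of 10 lipolysis genes was higher and 3 lower, and 1 of 8 entry genes and 1 of 7 thioesterase and uncoupling genes were higher. In gel against uninjured, 3 regulators were higher and 8 lower. Of the genes listed under mitochondrial oxidation, 1 was higher, again Decr2, and 3 were lower, Hsd17b10, Pcca and Pccb. There 2 lipolysis genes were higher and 2 lower, and 1 gene of the peroxisomal list was higher. The 3 remaining roles had 1 gene called in each direction there. Abcd2, a peroxisomal acyl-CoA transporter, rose by 0.71 ± 0.16 in PBS against uninjured (0.0145), a call lost without uninjured library 1 or 4 or PBS library 1 or 2 (0.0507 to 0.0586).

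Several other genes of the list had larger changes than any of the 29. Ppargc1b, a coactivator related to Ppargc1a, rose by 1.30 ± 0.15 in PBS against uninjured (adjusted p = 0.000141) and by 1.68 ± 0.15 in gel against uninjured (1.36e-05), from 17.0 ± 1.66 CPM in uninjured to 42.0 ± 5.63 in PBS and 54.6 ± 10.1 in gel (SD, n = 4). Plin4, a lipid droplet coat protein, and Ucp3, an uncoupling protein of muscle mitochondria, fell in both treated groups. Plin4 fell by 1.92 ± 0.26 in PBS and by 2.06 ± 0.26 in gel against uninjured (adjusted p = 0.000837 and 0.000201), and Ucp3 fell by 1.63 ± 0.24 and 1.71 ± 0.24 (0.00137 and 0.000345). Gpihbp1, which holds lipoprotein lipase on capillaries, fell by 1.07 ± 0.22 in PBS against uninjured (0.0103).

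In gel against PBS, Rxra, the partner receptor of the PPARs, fell by 1.06 ± 0.19 (adjusted p = 0.00227), and Lpin1, a phosphatidate phosphatase that also acts with Ppargc1a, fell by 1.01 ± 0.19 (0.00261). Acadsb, a dehydrogenase for short branched chains, fell by 0.66 ± 0.14 (0.00402). Ucp2, an uncoupling protein found in many immune cells, rose by 2.83 ± 0.48 (0.00301): its gel libraries stood at 157, 236, 33.0 and 182 CPM beside 20.2 to 22.6 CPM in PBS libraries. Decr2, the peroxisomal dienoyl-CoA reductase, rose by 1.71 ± 0.35 (0.00350), from 1.42 ± 0.382 to 4.66 ± 1.77 CPM. In gel against uninjured, Nrip1, a corepressor of fatty acid oxidation genes, fell by 1.43 ± 0.17 (9.16e-05), Lpin1 by 1.26 ± 0.19 (0.000478) and Acsl6, an acyl-CoA synthetase, by 0.96 ± 0.15 (0.000655).

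Markers of other cells moved with the gel group. All 10 macrophage markers rose in gel against PBS and in gel against uninjured, beside 16.6% and 14.5% of all genes. None of the 10 was called in PBS against uninjured. Their summed level was 40.8 to 81.6 CPM in uninjured, 30.2 to 63.3 in PBS, 1176, 2319 and 2590 for gel 1, 2 and 4, and 104 for gel 3. Of the 10, only Adgre1 was at 0, in 1 uninjured and 1 PBS library. The 3 gel libraries with the high macrophage sums were below gel library 3 and the PBS libraries for the summed fatty acid genes. Only gel libraries 2 and 4 were below the uninjured libraries. The 29 genes summed to 4715, 3417 and 3545 CPM in gel libraries 1, 2 and 4, 5485 in gel library 3, 4937 to 6732 in PBS and 4514 to 4708 in uninjured libraries. Of 7 fibroblast markers, 0 were called in PBS against uninjured. In gel against PBS 3 of the 7 were higher and in gel against uninjured 3, beside 16.6% and 14.5% of all genes. The 7 markers summed to 611 to 959 CPM in uninjured, 510 to 1292 in PBS, and 3695, 3195, 625 and 3954 in gel libraries 1 to 4. The part of macrophage and fibroblast RNA in the lower levels was not tested.

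Among all genes tested, 2.79% were called higher and 3.39% lower in PBS against uninjured. The shares were 16.6% and 13.2% in gel against PBS and 14.5% and 11.1% in gel against uninjured. The counts in this paragraph are read beside these shares. Of 12 fast fibre genes, 4 fell in PBS against uninjured, 4 fell and 1 rose in gel against PBS and 7 fell in gel against uninjured, with medians of -0.33, -0.23 and -0.46. Of 24 genes for mitochondrial proteins outside fatty acid oxidation, 1 (4.17%) rose in PBS against uninjured and 7 (29.2%) fell in gel against PBS. In gel against uninjured 3 (12.5%) fell, near the share of all genes. The medians of the 24 were 0.09, -0.33 and -0.15. Beside these, the medians of the 29 fatty acid genes were 0.33, -0.42 and -0.17. The part of fibre content in the fatty acid gene levels was not tested. Of 10 slow and oxidative fibre markers, 0 were called in PBS against uninjured, Mb was lower in gel against PBS, and Tnni1 and Tnnt1 were higher in gel against uninjured. Of 8 endothelial markers, which bear on Lpl and Cd36, 1, 0 and 1 were called, the 1 being Gpihbp1, lower. Of the adipocyte markers 4 of 8 passed the filter, and 0, 1 and 1 were called, Pparg, higher. Rn45s, the precursor of ribosomal RNA, stood at 92.8 ± 16.4 CPM in uninjured, 26.4 ± 7.69 in PBS and 114 ± 19.0 in gel libraries (SD, n = 4). Its change was -1.81 for PBS against uninjured (edgeR adjusted p = 0.000116), 2.12 for gel against PBS (0.000141) and 0.30 for gel against uninjured (0.258). No gene had a lower adjusted p in gel against PBS. The PBS libraries thus stood apart from both other groups in this RNA, and its bearing on the levels of the 29 genes was not tested.

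**Figure D4:**
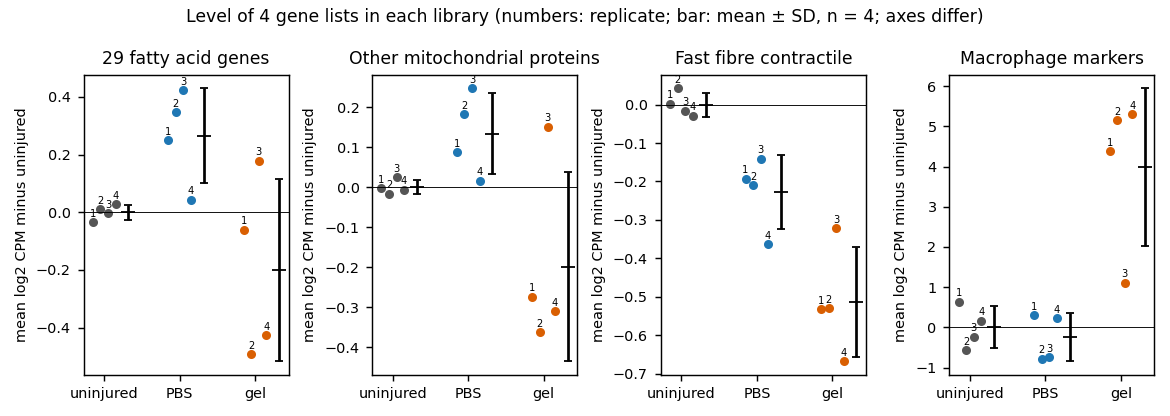
Mean log2 CPM of each of 4 gene lists, as the difference from the uninjured mean, in each library numbered by replicate, with group mean ± SD (n = 4) and different axes. For the 29 fatty acid genes PBS libraries lie at 0.25, 0.35, 0.42 and 0.04 and gel libraries at -0.06, -0.49, 0.18 and -0.43.

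Scaling to the fast fibre genes, which asks how the members moved relative to contractile genes, put the median change of all genes at 0.23 in PBS against uninjured, 0.33 in gel against PBS and 0.55 in gel against uninjured, where it was 0.00, 0.04 and 0.03. The share of all calls that were higher went from 45.1% to 90.7%, from 55.6% to 85.9% and from 56.6% to 95.8%. Under it 18 of the 29 genes were called higher in PBS against uninjured, beside 16.1% of all genes, and 6 lower in gel against PBS, beside 4.99%: Acsl1, Crat, Acacb, Acadm, Etfdh and Echs1. In gel against uninjured 13 of the 29 (44.8%) were called higher and 0 lower, beside 53.5% and 2.35% of all genes. The direction of the members there flips with the scaling, whereas the median of all genes was above 0 under both. Relative to the median of all genes, the members' median was 0.32, -0.47 and -0.20 as reported and 0.31, -0.47 and -0.22 with fibre-gene scaling. Scaling shifts every gene of a library alike, so these 2 sets of values had to be close, and their likeness is no test of the scaling.

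**Figure D5:**
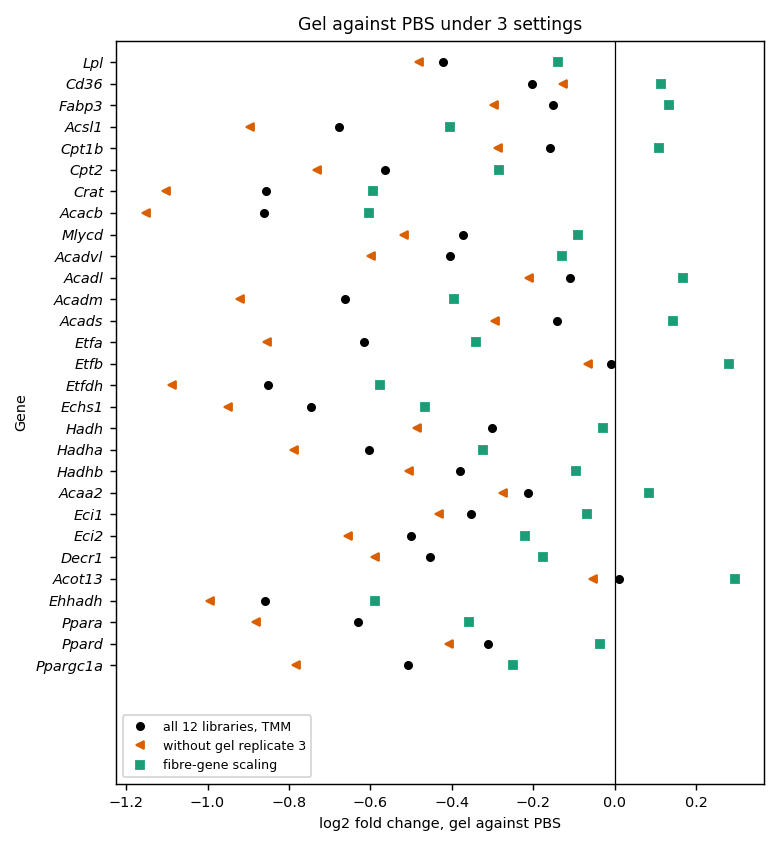
Log2 fold change of each of the 29 genes for gel against PBS, with all 12 libraries (circles), without gel library 3 (triangles) and scaled to fast fibre genes (squares). Triangles lie to the left of circles for all genes but Cd36, and squares lie to the right of circles for every gene.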

How the data were processed

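The authors deposited 1 table of whole-number counts per gene for each of 12 libraries of mouse tibialis anterior total RNA, with 4 libraries in each of 3 groups. Per the submitters' processing notes, the tools were STAR and edgeR and the build was mm39. For the counting tool, strand setting, annotation and versions: not given in the sources used here. All libraries were fitted together with edgeR 4.0.16 in R 4.3.3, using its default filter on low counts, trimmed-mean (TMM) scaling, 1 mean per group, robust quasi-likelihood dispersion and 9 residual degrees of freedom, and p-values were adjusted by Benjamini-Hochberg over all 13499 genes tested. CPM values use the TMM factors, and log2 CPM adds a prior count of 2. The steps were tested on simulated counts.

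The genes and lists were chosen with earlier results of these data known. Fold changes are given for members past the threshold in a comparison, in all comparisons for Cpt1b, Cd36, Ppara and Ppargc1a, and for at most 6 other fatty acid genes per comparison, those with the smallest p, and 1 of these is not reported here. The alternatives were DESeq2 1.42.0, its size factors (RLE), scaling to fast fibre genes, no filter, a filter of 5 CPM in 4 libraries, the 2 groups alone, a block for the animal, and leaving out each library. The block rests on the animal numbers in the deposited names and on the leg each treatment was given to. Deviations from the group means correlated at 0.14, -0.06, 0.31 and 0.08 for the 4 same-numbered pairs, and at -0.27 to 0.20 for the 12 differently numbered pairs, so the correlations alone do not separate the pairs. Beyond those names no label says that libraries of a group came from separate animals, and p-values measure the spread between these libraries. Every pair of libraries within a group differed by more than sampling noise. Promoter sequences come from RefSeq, build GRCm38.p6, and exon overlaps from GENCODE M21, build GRCm38.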

Additional observations from a re-analysis of the deposited data

Results flagged for a closer look

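Among 87 groups of 4 libraries, 1 for each gene and group, 7 had a library whose gap to its neighbour took up more of the group's range than Dixon's 95% critical value. Chance gives this in about 1 in 20 groups. In the gel group it was library 3 each time. There Acadm stood at 202 CPM beside 111 to 124 in the other gel libraries, Etfdh at 97.7 beside 56.2 to 62.4, and Hadhb at 185 beside 139 to 142. For Cd36 gel library 3 was the lowest, at 95.6 CPM beside 124 to 127. In the PBS group, Mlycd stood at 102 CPM in library 3 beside 72.6 to 75.4, and Ehhadh at 8.79 CPM in library 1 beside 6.24 to 6.47. In the uninjured group, Fabp3 stood at 327 CPM in library 2 beside 358 to 364.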

How the results depend on the processing

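The 4 members higher in PBS against uninjured became 18 with fibre-gene scaling, 16 with the 2 groups alone and 1 to 10 without 1 library. All genes higher there (376) became 626 with DESeq2, 2180 with fibre-gene scaling, 1192 with the 2 groups alone and 156 to 800 without 1 library. All genes lower (457) became 714, 223, 1147 and 222 to 893 in that order. The 13 members lower in gel against PBS became 6 with fibre-gene scaling and 7 to 21 without 1 library. All genes higher there (2236) became 4102 with fibre-gene scaling and 1338 to 3171 without 1 library, and all genes lower (1786) became 674, 1118 to 2791, and 1046 with the 2 groups alone. In gel against uninjured, members higher (0) became 13 and members lower (3) became 0 with fibre-gene scaling, and 0 to 11 were lower without 1 library. All genes higher there (1951) became 7222 with fibre-gene scaling and 1236 to 2841 without 1 library, and all genes lower (1498) became 317 and 1039 to 2500. The cause of these shifts was not tested.

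These changes turned sign. Ppara in PBS against uninjured ranged over -0.056 to 0.17 without 1 library, and it was below 0 without uninjured library 1 (-0.016), PBS library 2 (-0.056) or PBS library 3 (-0.029). With fibre-gene scaling, Ppargc1a in PBS against uninjured was 0.10, and Cd36 and Cpt1b in gel against PBS were both 0.11. In gel against uninjured, Cd36 was 0.52 with fibre-gene scaling, 0.062 with the stricter filter and -0.077 to 0.063 without 1 library, being above 0 without uninjured library 3 (0.0082) or gel library 3 (0.063), and the change of Ppard, called as reported, was 0.043 with fibre-gene scaling. Pairing the legs with a replicate block left the 13 members called in gel against PBS, with Acsl1 at -0.71 (adjusted p = 0.0145), and called 1644 genes higher and 1327 lower. At 16 to 50 counts per library, the changes of Cpt1b are imprecise, and how reads in its shared exons were counted is not stated.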
